A study of Homo sapiens with 6 samples.

Results

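Transcripts of 10 genes of the NF-kappaB pathway were followed in ME180 cells, an epithelial line from a human cervical cancer. The cells had received an siRNA against the kinase SGK1 (siSGK1, 3 libraries) or a control siRNA (siControl, 3 libraries) for 48 h. The genes were picked by name as subunits and feedback inhibitors of NF-kappaB: NFKB1, NFKB2, RELA, RELB, NFKBIA, NFKBIE, NFKBIZ, TNFAIP3, TNIP1 and TNFAIP2. All 10 were found among the 58302 genes of the deposited table. Expression was measured by sequencing of polyA RNA, with the libraries of each group numbered 2, 3 and 4. The labels do not say whether they came from separate cultures, so p-values measure the spread between these libraries, which may be technical. Both groups are 1 cell line and differ, per the labels, in the siRNA alone. The siRNA sequences and their number were not used here.

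NF-kappaB is a family of dimeric transcription factors built from RELA, RELB, REL and the products of NFKB1 and NFKB2, whose long precursors carry their own inhibitory ankyrin repeats. In resting cells inhibitors of the IkappaB family hold the dimers in the cytoplasm, and signals from cytokine and pattern recognition receptors activate the IkappaB kinases, which mark the inhibitors for degradation. Several genes that the freed dimers switch on encode inhibitors, among them NFKBIA and TNFAIP3, and so close a negative feedback loop. In keratinocytes and other squamous cells the pathway drives inflammatory and antimicrobial genes. NFKBIZ differs from the classical inhibitors in that its protein acts in the nucleus and helps to switch on a subset of targets. TNFAIP2 is a gene induced by TNF, and its protein is related to a subunit of the exocyst tether.

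The promoters of the 2 genes whose transcripts changed, NFKBIZ and TNFAIP2, are shown here beside that of NFKBIA, the classical feedback inhibitor. Each window spans 250 bases before to 50 bases after an annotated start (RefSeq, GRCh38.p14, gene strand, 5′ to 3′). Capitals mark matches on either strand to the kappaB decamer consensus, the general binding sequence of NF-kappaB dimers. NFKBIZ has 2 annotated starts with a window each: chr3:101827740-101828039 (plus strand, upstream start) and chr3:101849264-101849563 (plus strand, downstream start). The NFKBIA window is chr14:35404700-35404999 (minus strand), and the TNFAIP2 window is chr14:103123211-103123510 (plus strand).
NFKBIZ upstream start: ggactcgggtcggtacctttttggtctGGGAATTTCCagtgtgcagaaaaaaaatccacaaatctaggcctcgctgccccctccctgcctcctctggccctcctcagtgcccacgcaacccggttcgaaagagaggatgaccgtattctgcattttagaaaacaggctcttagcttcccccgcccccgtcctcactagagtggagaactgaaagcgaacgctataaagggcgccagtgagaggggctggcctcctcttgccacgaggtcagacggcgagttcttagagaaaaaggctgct
NFKBIZ downstream start: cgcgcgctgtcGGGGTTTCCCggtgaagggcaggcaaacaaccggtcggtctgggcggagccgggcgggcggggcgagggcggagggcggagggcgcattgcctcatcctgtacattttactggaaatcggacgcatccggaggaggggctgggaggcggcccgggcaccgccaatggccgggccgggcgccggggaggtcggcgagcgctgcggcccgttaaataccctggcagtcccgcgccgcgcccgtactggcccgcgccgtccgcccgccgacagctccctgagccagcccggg
TNFAIP2: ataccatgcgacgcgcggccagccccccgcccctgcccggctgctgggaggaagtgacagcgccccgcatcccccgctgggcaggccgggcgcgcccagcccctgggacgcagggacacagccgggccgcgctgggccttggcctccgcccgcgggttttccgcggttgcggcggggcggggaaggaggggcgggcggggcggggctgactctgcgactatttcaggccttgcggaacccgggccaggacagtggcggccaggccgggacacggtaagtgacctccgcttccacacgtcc
NFKBIA: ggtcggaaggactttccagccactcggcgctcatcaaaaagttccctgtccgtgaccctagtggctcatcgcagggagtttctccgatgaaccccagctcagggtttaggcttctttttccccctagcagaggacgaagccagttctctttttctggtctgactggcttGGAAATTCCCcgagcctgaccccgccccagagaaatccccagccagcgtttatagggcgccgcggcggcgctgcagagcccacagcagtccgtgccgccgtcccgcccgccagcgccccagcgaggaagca

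Both NFKBIZ windows held a match. GGGAATTTCC began 223 bases before the upstream start, and GGGGTTTCCC, which fits the consensus on both strands, began 239 bases before the downstream start. The NFKBIA window held GGAAATTCCC, the reverse strand of the same decamer as the upstream NFKBIZ match, 81 bases before the start. The TNFAIP2 window held none, which says only that these letters are not in these 300 bases. Of the 10 genes, 8 had a window in the RefSeq table, 14 windows in all, and 6 of the 8 had a match: NFKB1, NFKB2, NFKBIA, NFKBIZ, TNFAIP3 and TNIP1. RELB and NFKBIE had no entry. Of all 35116 RefSeq windows of this length, 11.3% held a match, as did 17.3% of the 8429 tested genes with at least 1 window. A match is a description of the sequence and not a binding site shown by these data.

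The libraries held 28405647 to 35242643 reads assigned to genes in siSGK1 and 27262794 to 27874948 in siControl. SGK1, the targeted transcript, averaged 1.70 ± 0.12 FPKM in siSGK1 and 4.12 ± 0.19 FPKM in siControl (SD, n = 3 each; limma adjusted p = 1.88e-05), so it remained at 41.2% of its control level. The transcript of the related kinase SGK3 was lower too, at 0.498 to 0.573 FPKM in siSGK1 and 0.920 to 1.16 FPKM in siControl. Its mean of 0.771 FPKM was below the level required for testing. Epithelial identity was checked by 7 markers (EPCAM, CDH1, KRT5, KRT14, KRT8, KRT18, TP63), all at a mean of at least 36.8 FPKM. Their summed level was 3626 to 4236 FPKM in siSGK1 and 5902 to 6170 FPKM in siControl. Most of that sum was KRT5, at 2615 to 3075 FPKM in siSGK1 and 3860 to 4079 FPKM in siControl. KRT14 (479.7 to 584.8 against 1359 to 1416 FPKM) and KRT8 (287.4 to 328.4 against 425.5 to 434.4 FPKM) were lower in siSGK1 too. EPCAM, CDH1, KRT18 and TP63 had overlapping groups. The 5 leukocyte markers summed to at most 0.366 FPKM in any library. Of 5 fibroblast and endothelial markers, COL1A1 alone reached a mean of 1 FPKM (5.15 FPKM) and PECAM1 was listed at 0 throughout. The part of these lower keratins in the results below was not tested. The deposited FPKM carry a scaling that sets the typical gene near no change (median log2 change −0.006). Scaling by total reads instead moved that median to 0.12, and rescaling to TPM moved it to 0.18. Rises made up 44.2% of all calls as deposited, 73.6% with total reads, 82.8% with TPM and 51.2% with quantile normalization, so every change below is relative to the median gene.

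Transcript levels of the group spanned from under 1 to nearly 50 FPKM (fragments scaled for gene length and library size, so that levels can be compared between genes). NFKBIA, TNFAIP2, TNIP1 and RELA were the abundant members, and TNFAIP3 the scarce one. In siSGK1 the order was NFKBIA, TNFAIP2, TNIP1, RELA, NFKB2, NFKB1, RELB, NFKBIZ, NFKBIE and TNFAIP3. In siControl TNFAIP2 stood above NFKBIA, and NFKBIE above NFKBIZ. In siSGK1 the library ranges of NFKBIZ overlapped with those of its neighbours RELB and NFKBIE, and in siControl those of RELB and NFKBIE overlapped. The other neighbours in either order had ranges apart from each other. TNFAIP3 was the single member below the level required for testing, a mean of at least 1 FPKM over the 6 libraries.

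**Figure D1:**
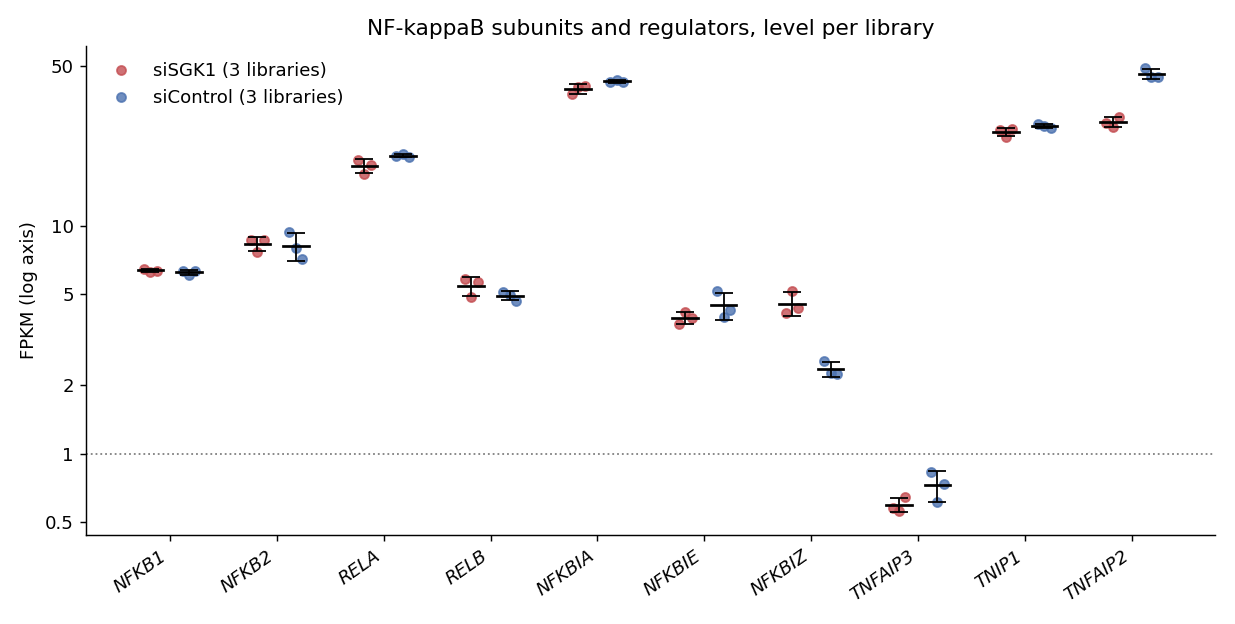
FPKM (log axis) of the 10 genes in each siSGK1 library (left of each pair) and each siControl library (right), with the mean and SD of 3 libraries as bars and the 1 FPKM test limit dotted. NFKBIZ sits at 4.14 to 5.17 FPKM in siSGK1 against 2.23 to 2.54 in siControl, TNFAIP2 at 27.2 to 29.9 against 45.1 to 49.1, and the other pairs lie close together.

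Of the 9 genes tested, 1 rose (NFKBIZ) and 1 fell (TNFAIP2) at a Benjamini-Hochberg adjusted p below 0.05 in limma, fitted on log2(FPKM + 0.5) over all 11945 tested genes. Among all tested genes 40.6% were called, 17.9% higher and 22.7% lower, so 2 of 9 (22.2%) lies below the background. The median log2 change of the 9 was −0.09, against −0.006 for all tested genes. The 2 groups did not overlap for 5 of the 9 genes, NFKBIZ, TNFAIP2, RELA, NFKBIA and TNIP1, against 53.4% of all tested genes.

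NFKBIZ (ENSG00000144802, chromosome 3, 101827991 to 101861022, plus strand), the nuclear IkappaB protein, was the member that rose. It measured 4.14, 5.17 and 4.33 FPKM in siSGK1 replicates 2, 3 and 4, against 2.54, 2.26 and 2.23 FPKM in siControl. All 3 siSGK1 libraries lay above all 3 siControl libraries, with replicate 3 the highest. The means were 4.55 ± 0.55 FPKM in siSGK1 and 2.34 ± 0.17 FPKM in siControl (SD, n = 3 each), a ratio of 1.94. Behind them stood 719, 1010 and 936 reads in siSGK1 and 393, 346 and 355 reads in siControl. The log2 change was 0.82 (95% interval 0.63 to 1.02, SE 0.09, adjusted p = 0.00019), the 87th largest rise among the 11945 tested genes. Of all tested genes 2.39% were called higher with a change of at least 1.5-fold on this scale, as NFKBIZ was. The exact two-sided permutation test over the libraries gave p = 0.1, the smallest that 3 against 3 allow, here and for every gene below whose groups do not overlap.

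TNFAIP2 (ENSG00000185215, chromosome 14, 103123442 to 103137439, plus strand), the TNF-induced gene, was the member that fell. It measured 28.2, 27.2 and 29.9 FPKM in siSGK1, against 49.1, 45.1 and 45.1 FPKM in siControl. Every siSGK1 library was well below every siControl library, with little spread inside either group. The means were 28.5 ± 1.4 FPKM in siSGK1 and 46.4 ± 2.3 FPKM in siControl (SD, n = 3 each), which puts siSGK1 at 61.3% of the control level. The log2 change was −0.70 (95% interval −0.82 to −0.57, SE 0.05, adjusted p = 4.33e-05), the 307th largest fall. Of all tested genes 3.7% were called lower by at least 1.5-fold, as TNFAIP2 was. It rested on 4176 to 5515 reads per library in siSGK1 and 5881 to 6481 in siControl.

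**Figure D2:**
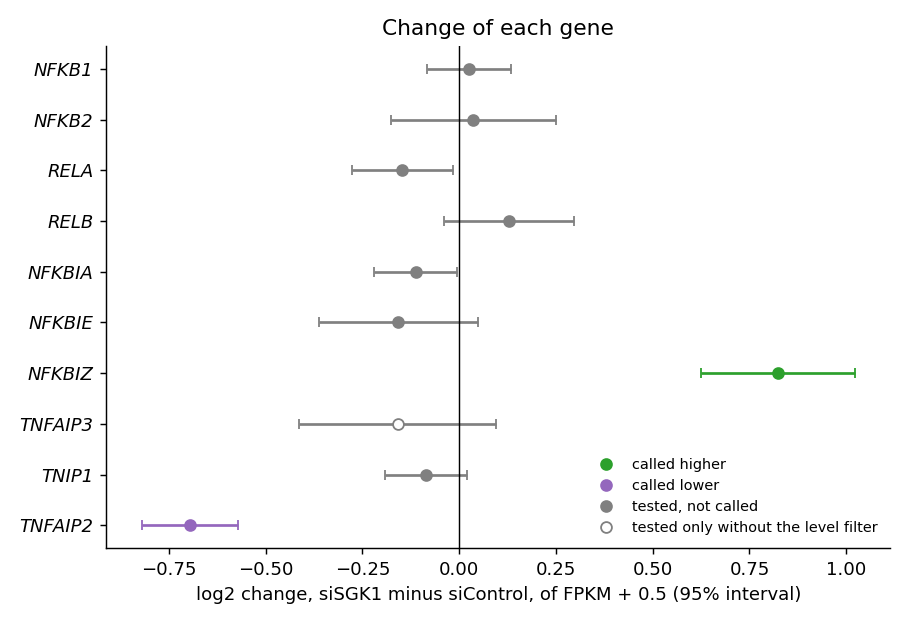
Log2 change of FPKM + 0.5, siSGK1 minus siControl, for the 10 genes, with 95% intervals from limma; the open point, TNFAIP3, was tested only without the level filter. NFKBIZ (0.82) lies to the right and TNFAIP2 (−0.70) to the left, and the other 8 lie within 0.16 of 0.

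Ratios between genes of one library do not depend on how libraries are scaled. Those of these 2 genes to NFKBIA, and of NFKBIZ to NFKBIE, did not overlap between the groups. This is not particular to them, as the RELA and RELB shares given below did not overlap either. How often ratios of other gene pairs were apart was not counted. NFKBIZ and TNFAIP2 were picked by their calls, and NFKBIA and NFKBIE changed little, so these ratios restate the calls. NFKBIZ per NFKBIA, the nuclear IkappaB protein against the classical inhibitor, was 0.110, 0.127 and 0.105 in siSGK1, against 0.0595, 0.0517 and 0.0522 in siControl. NFKBIZ per NFKBIE was 1.10 to 1.24 in siSGK1 and 0.492 to 0.567 in siControl, so NFKBIZ was the higher of that pair in siSGK1 and the lower in siControl. TNFAIP2 per NFKBIA was 0.750, 0.669 and 0.729 in siSGK1, against 1.15, 1.03 and 1.05 in siControl. By contrast NFKBIA per RELA, inhibitor against the subunit it binds, was 1.93 to 2.41 in siSGK1 and 2.10 to 2.14 in siControl, with overlapping groups.

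None of the 4 subunit genes was called. NFKB1 (chromosome 4, 102501329 to 102617302, plus strand), which encodes a precursor and the DNA-binding subunit cut from it, measured 6.48, 6.28 and 6.34 FPKM in siSGK1 and 6.33, 6.08 and 6.34 FPKM in siControl. Its log2 change was 0.03 with a 95% interval of −0.08 to 0.13 (adjusted p = 0.70), so a change beyond 1.10-fold upward or below 0.944 of control lay outside that interval. NFKB2 (chromosome 10, 102394110 to 102402529, plus strand), the precursor of the noncanonical pathway, measured 8.64, 7.67 and 8.69 FPKM in siSGK1 and 9.36, 7.96 and 7.12 FPKM in siControl. Its groups overlapped fully and its interval was wide, −0.18 to 0.25 on the log2 scale (adjusted p = 0.78).

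RELA (chromosome 11, 65653596 to 65663094, minus strand), the main transactivating subunit, measured 19.5, 16.9 and 18.5 FPKM in siSGK1 and 20.3, 20.6 and 20.0 FPKM in siControl. The groups were apart by a narrow margin, and the log2 change of −0.15 (95% interval −0.28 to −0.02) did not pass (adjusted p = 0.071). RELB (chromosome 19, 45001430 to 45038198, plus strand), the noncanonical partner of NFKB2, measured 5.86, 4.85 and 5.64 FPKM in siSGK1 and 5.12, 4.98 and 4.69 FPKM in siControl. Replicate 3 of siSGK1 was the low one and fell inside the siControl range, and the log2 change was 0.13 (interval −0.04 to 0.30, adjusted p = 0.20). Without siSGK1 replicate 3 RELB was called higher (log2 change 0.20, adjusted p = 0.033), and without siSGK1 replicate 2 RELA was called lower (−0.19, adjusted p = 0.035).

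As a share of the summed FPKM of 5 subunits, REL included, RELA made up 46.9% ± 0.6 in siSGK1 and 50.6% ± 1.7 in siControl (SD, n = 3 each). RELB made up 14.0% ± 0.5 and 12.3% ± 0.1 in those groups. Neither share overlapped between the groups, while those of NFKB1, NFKB2 and REL did. For comparison, the FPKM of 53.4% of all tested genes did not overlap, and shares of 1 sum are tied to each other. The sum itself was 36.3 to 41.0 FPKM in siSGK1 and 38.6 to 41.6 FPKM in siControl. REL was scarce, at 0.502 to 0.620 FPKM in siSGK1 and 0.475 to 0.538 FPKM in siControl. These shares are given as a description, with no test.

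The classical inhibitors were not called either. NFKBIA (chromosome 14, 35401511 to 35404749, minus strand), which encodes IkappaB alpha, measured 37.6, 40.7 and 41.1 FPKM in siSGK1 and 42.6, 43.7 and 42.8 FPKM in siControl. Each siSGK1 value was slightly below each siControl value, with a log2 change of −0.11 (95% interval −0.22 to −0.004, adjusted p = 0.090). NFKBIE (chromosome 6, 44258166 to 44265788, minus strand), which encodes IkappaB epsilon, measured 3.69, 4.16 and 3.95 FPKM in siSGK1 and 5.15, 3.99 and 4.25 FPKM in siControl. Its siControl replicate 2 stood above the other 5 libraries, the groups overlapped, and the log2 change was −0.16 (interval −0.36 to 0.05, adjusted p = 0.19). Without that library the log2 change of NFKBIE was −0.061 (adjusted p = 0.55).

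TNFAIP3 and TNIP1 belong to the ubiquitin-editing brake on signalling above the IkappaB kinases: TNFAIP3 encodes the enzyme, and TNIP1 an adaptor that binds it. TNIP1 (chromosome 5, 151029945 to 151093577, minus strand) measured 26.3, 24.6 and 26.5 FPKM in siSGK1 and 28.0, 27.4 and 26.7 FPKM in siControl. The gap between the groups was narrow and the log2 change of −0.09 (95% interval −0.19 to 0.02) did not pass (adjusted p = 0.18). TNFAIP3 (chromosome 6, 137867188 to 137883312, plus strand) measured 0.579, 0.562 and 0.643 FPKM in siSGK1 and 0.830, 0.611 and 0.734 FPKM in siControl, with overlapping groups. It rested on 86 to 119 reads per library in siSGK1 and 80 to 110 in siControl. Tested without the level filter, its log2 change was −0.16 (95% interval −0.41 to 0.10, adjusted p = 0.45).

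TPM and total-read scaling moved the median gene upward, and the signs of the small differences moved with it. The negative log2 changes of RELA, NFKBIA, NFKBIE and TNIP1 became positive under TPM (0.05, 0.09, 0.02 and 0.12), and those of NFKBIA (0.03) and TNIP1 (0.05) also under total reads. Under TPM, NFKB1 (0.21), NFKB2 (0.23), RELB (0.31) and TNIP1 (0.12) were called higher; under total reads NFKB1 (0.16) and RELB (0.26) were. Both scalings multiply each library by a constant, so subtracting the moved median nearly undoes them and is no separate check on direction. Relative to that median, the changes under TPM were −0.12 for RELA, −0.09 for NFKBIA, −0.15 for NFKBIE and −0.06 for TNIP1. Under total reads they were −0.13, −0.09, −0.15 and −0.07. Those of NFKB1, NFKB2 and RELB relative to it were 0.04, 0.05 and 0.14 under either scaling. NFKBIZ and TNFAIP2 kept their direction and call under both, at 1.00 and −0.49 under TPM and 0.95 and −0.56 under total reads.

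**Figure D3:**
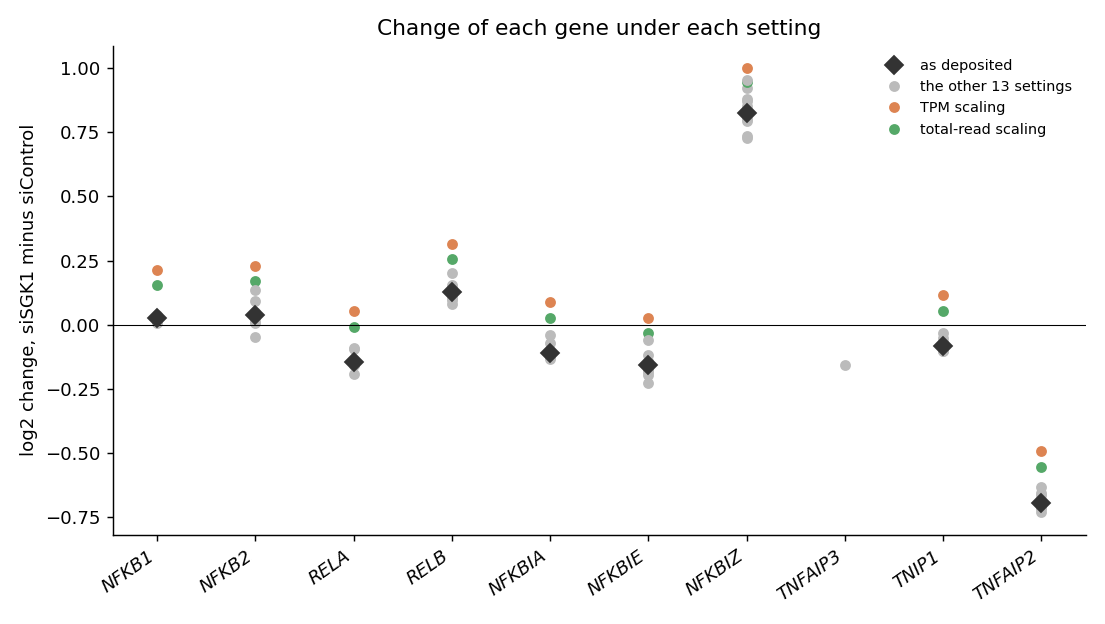
Log2 change, siSGK1 minus siControl, of each gene as deposited (diamond), with TPM or total-read scaling, and under the other 13 settings (other pseudocounts, filters, normalization, tests and left-out libraries); TNFAIP3 was tested only without a filter. NFKBIZ stays between 0.73 and 1.00 and TNFAIP2 between −0.73 and −0.49, while several of the other genes have points on both sides of 0.

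**Figure D4:**
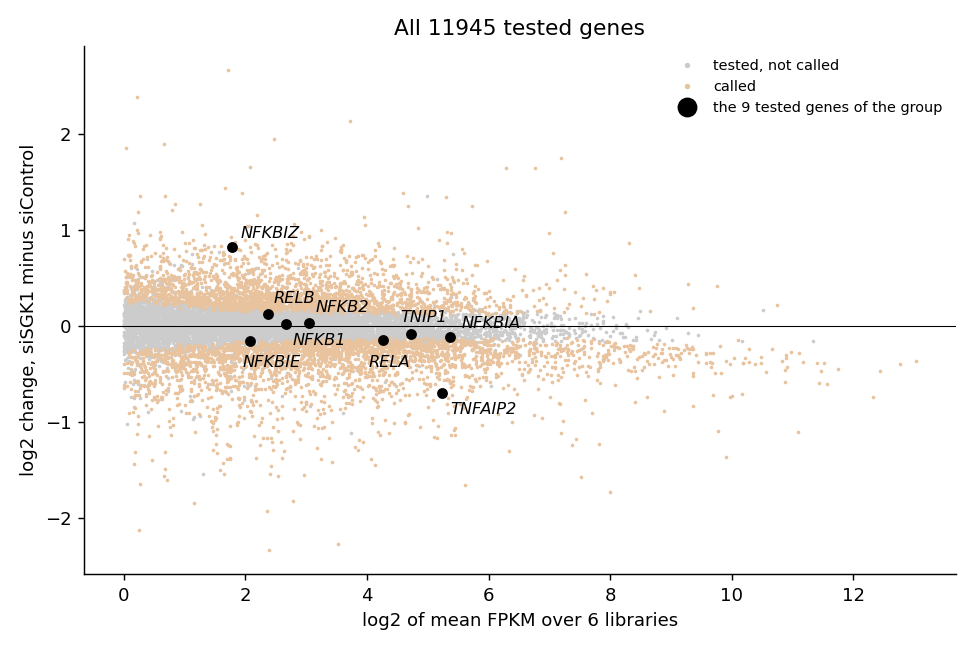
Log2 change (siSGK1 minus siControl) against log2 of mean FPKM for all 11945 tested genes, called genes in orange and the 9 tested genes of the group in black. NFKBIZ (87th largest rise) and TNFAIP2 (307th largest fall) lie away from 0, and the other 7 lie near 0.

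The 3′ UTRs of the group were searched for 4 heptamers that an earlier search of these data had singled out: CTATGCA and its neighbour TATGCAA for lower genes, and for higher genes CGGAGAA and its neighbour TCGGAGA. None of the 10 genes held any of them in its longest annotated 3′ UTR (153 to 3156 bases, GENCODE 29), whereas 19.4% of 10285 tested protein-coding genes held at least 1. The result differed among the genes named by p from the pathway lists below. MAP3K8, TAB3, MAP3K7, OTUD7B and TNFSF10 held a heptamer of the lower genes, though TAB3 and MAP3K7 were not called. PTGS2 held one of the higher genes, and TRAF3 held both kinds. The others named in that way held none. The UTRs of the holders ran from 997 bases (MAP3K8) to 6045 (OTUD7B), and UBE2N with 4349 bases held none. Both the heptamers and the genes named by p came from these data, so their matching is no separate result. Over the 10285 genes the median log2 change was −0.077 with CTATGCA (−0.003 without) and −0.028 with TATGCAA (−0.005 without). It was 0.073 with CGGAGAA and 0.081 with TCGGAGA (−0.01 without either one). Shorter annotated UTRs and other sequences were not searched. A part of such sequences in the changes of NFKBIZ, TNFAIP2 or the list genes was not tested.

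Other genes of the pathway were read from 5 lists by role. No gene was called among the remaining subunits and IkappaB proteins: of 8 listed (REL, NFKBIB, NFKBID, BCL3, TNIP2, TNIP3, NKIRAS1, NKIRAS2) 6 were tested and 0 were called in limma, with 0 at an unadjusted p under 0.05. NFKBIB, encoding IkappaB beta, had a log2 change of 0.08 (adjusted p = 0.34), and NFKBID, another nuclear IkappaB protein, 0.14 (adjusted p = 0.28). BCL3, a nuclear relative, had −0.04 (adjusted p = 0.59) and the adaptor TNIP2 −0.02 (adjusted p = 0.86). Under TPM, which called 5644 of all 11945 genes higher, 5 of the 6 were called higher, and under total reads, which called 4309 higher, 2 were.

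Of 12 kinases and kinase adaptors, 11 were tested, 0 rose and 1 fell (9.09% called, beside 40.6% of all tested genes), with a median log2 change of −0.06. That gene was MAP3K8, a kinase that binds the NFKB1 precursor, at 1.61, 2.04 and 2.05 FPKM in siSGK1 and 2.84, 2.63 and 2.60 FPKM in siControl (log2 change −0.42, adjusted p = 0.0063; −0.25 and adjusted p = 0.061 under TPM). TAB3, an adaptor of the upstream kinase MAP3K7, missed the threshold narrowly (log2 change −0.25, adjusted p = 0.0501). MAP3K7 itself was not called (−0.13, adjusted p = 0.19).

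Among 24 receptors and adaptors, 18 were tested, 2 rose and 6 fell, a share of 44.4% beside 40.6% of all genes. The signalling adaptors TRAF3 and TRAF2 rose. TRAF3, which restrains the noncanonical pathway, measured 7.39, 7.38 and 7.07 FPKM in siSGK1 and 5.36, 5.18 and 5.62 FPKM in siControl (log2 change 0.40, adjusted p = 0.00052). TRAF2 measured 16.4, 14.4 and 16.0 FPKM in siSGK1 and 12.4, 11.3 and 11.5 FPKM in siControl (0.40, adjusted p = 0.0014). In contrast the TNF receptor TNFRSF1A and the kinase RIPK1, which is recruited to it, fell. TNFRSF1A averaged 35.4 ± 2.6 FPKM in siSGK1 and 44.2 ± 1.7 FPKM in siControl (−0.32, adjusted p = 0.0037), and RIPK1 4.72 ± 0.22 and 6.04 ± 0.14 FPKM in those groups (−0.32, adjusted p = 0.0019; not called under TPM, adjusted p = 0.076).

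Of 15 ubiquitin chain enzymes, 14 were tested, 2 rose and 1 fell (21.4% called, beside 40.6% of all tested genes). OTUD7B, a deubiquitinase of TRAF3, averaged 2.04 ± 0.05 FPKM in siSGK1 and 2.61 ± 0.06 FPKM in siControl (log2 change −0.29, adjusted p = 0.0061), a call lost under TPM (adjusted p = 0.17) and total reads (adjusted p = 0.062). The rises of RBCK1, a subunit of the linear ubiquitin ligase (0.16, adjusted p = 0.025), and UBE2N, a conjugating enzyme (0.15, adjusted p = 0.029), were small. Both calls were lost when siControl replicate 3 or 4 or siSGK1 replicate 2 or 4 was left out, with adjusted p between 0.053 and 0.087. Without the level filter the call of RBCK1 was lost too (adjusted p = 0.058), while that of UBE2N was kept (adjusted p = 0.037). UBE2N shares 39.5% of its exon bases with NUDT4 on the other strand. SHARPIN, another ligase subunit, was not called (−0.17, adjusted p = 0.058).

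Of 32 other target genes, 15 were tested, 2 rose and 7 fell (60.0% called, median log2 change −0.16), beside 40.6% called and a median of −0.006 over all tested genes. The other 17 were below the level filter. Of these, CXCL1, CXCL8, TRAF1 and BIRC3 were higher in siSGK1 with groups apart, as 53.4% of tested genes had, and the rest overlapped. Without the filter, limma no longer called CCL20 higher (adjusted p = 0.076). Nor did it call ICAM1 (0.074), IRF1 (0.14) and PLAU (0.055) lower. PTGS2, the inducible prostaglandin synthase, measured 1.88, 2.11 and 1.83 FPKM in siSGK1 and 0.998, 0.922 and 0.880 FPKM in siControl (log2 change 0.77, adjusted p = 0.00022). LCN2, an iron-binding antimicrobial protein, went the other way, at 23.2, 24.8 and 26.3 FPKM in siSGK1 and 37.2, 37.0 and 39.5 FPKM in siControl (−0.60, adjusted p = 9.88e-05). The cytokine IL1B averaged 2.49 ± 0.06 FPKM in siSGK1 and 3.40 ± 0.38 FPKM in siControl (−0.38, adjusted p = 0.0052; not called under TPM, adjusted p = 0.066). TNFSF10, the death ligand TRAIL, averaged 3.37 ± 0.21 and 7.54 ± 0.20 FPKM in those groups (−1.06, adjusted p = 1.02e-05).

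**Figure D5:**
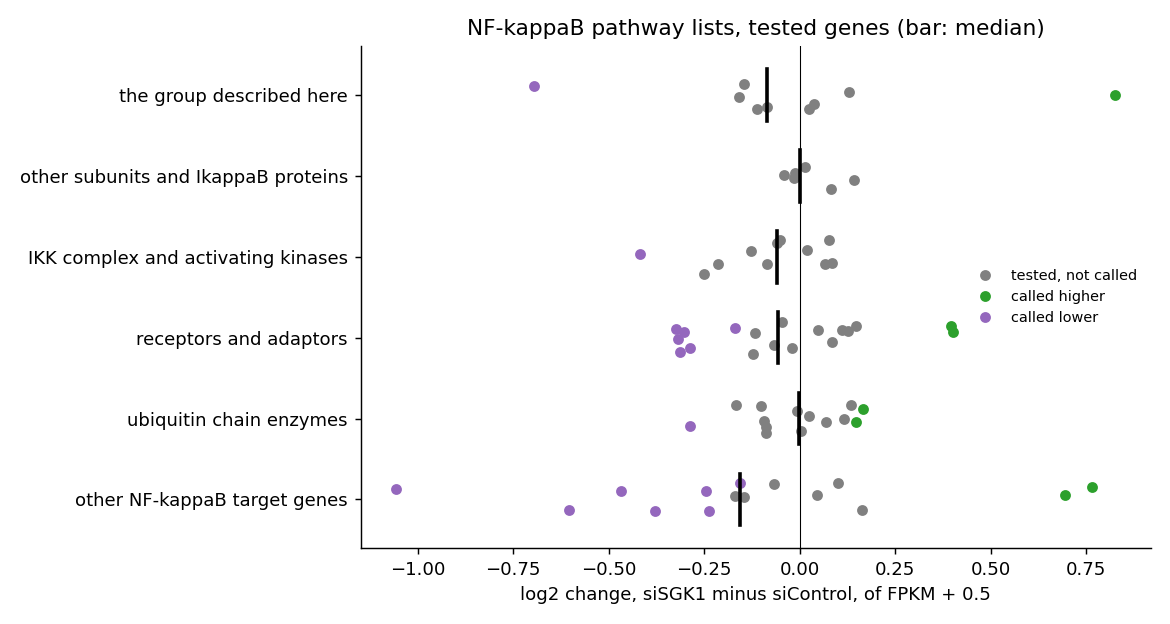
Log2 change (siSGK1 minus siControl) of the tested genes of the group and of 5 other NF-kappaB pathway lists, with each list's median as a bar. Called genes number 0 of 6 among subunits and IkappaB proteins and 1 of 11 among kinases, beside 40.6% of all tested genes, and lie on both sides of 0 among receptors and adaptors (2 higher, 6 lower) and other target genes (2 higher, 7 lower).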

How the data were processed

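PolyA RNA in 6 libraries from ME180 cells was sequenced with the NEBNext Ultra kit, per the labels' protocols. The authors deposited FPKM for 58302 genes with gene length and position. The tools are listed as featureCounts 1.5.0-p3, HISAT2 2.0.5 and bcl2fastq 2.19, per the submitters' processing notes. The notes name the build hg19, but 97.5% of the gene coordinates shared with GENCODE 29 equal those of GRCh38, so positions are read as GRCh38. The strand setting of the counting was not given. FPKM times gene length stepped in whole reads for 100% of values above 0 (tolerance 0.001), which gave the depths. Values were tested as log2(FPKM + 0.5), which understates changes of low genes, with limma 3.58.1 in R 4.3.3 (empirical Bayes with trend, two-sided) and Benjamini-Hochberg adjustment over the 11945 genes with a mean of at least 1 FPKM; the test was tried on simulated data first. Adjusted p-values come from this test unless another setting is named. Replicates of a group differed by more than counting noise in every pair (chi-square per degree of freedom at least 3.14). The largest values, 7.60 and 7.07, belonged to the pairs of siSGK1 replicate 3 with replicates 2 and 4. The members and lists were chosen with earlier results of these data known. Genes named are the 10, SGK1, and up to 4 tested genes with the lowest p per list; others were chosen after their values were seen. The result for 1 kinase list gene that this rule names is not reported here. Alternatives were other pseudocounts (0.1, 1), filters (none, 5 FPKM), scalings, voom on recovered reads, a replicate block and each library left out. Exons of TNFAIP3 overlap an antisense gene over 95 bases, and those of RELA another gene over 9.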

Additional observations from a re-analysis of the deposited data

How the results depend on the processing

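NFKBIZ was called higher under all 14 settings that tested it (log2 change 0.73 to 1.00, adjusted p at most 0.0043) and TNFAIP2 lower under all 15 (−0.73 to −0.49, adjusted p at most 0.0013). With a mean of at least 5 FPKM, NFKBIZ was not tested, so 0 of the group were called higher, and 1282 of all genes. Under TPM 5 of the group were called higher, 5644 of all genes higher and 1171 lower; under total reads 3, 4309 and 1546. Voom called 2 of the group lower (RELA, adjusted p = 0.036). Leaving out 1 library gave 1 to 2 called higher and 1 to 2 called lower, and a log2 change of −0.050 to 0.14 for NFKB2 (negative without siControl replicate 4) and −0.056 to 0.038 for TNIP2. Signs turned under TPM for RELA (0.052), NFKBIA (0.090), NFKBIE (0.025), TNIP1 (0.12), BCL3 (0.15), TNIP2 (0.18), MAP3K7 (0.041) and SHARPIN (0.033); under total reads for NFKBIA (0.027), TNIP1 (0.053), BCL3 (0.091) and TNIP2 (0.12); and under quantile normalization for TNIP2 (0.021). TPM and total reads move the median gene (to 0.18 and 0.12). Relative to it RELA, NFKBIA, NFKBIE and TNIP1 stayed negative under both. Subtracting the median nearly undoes these scalings, so that is no separate check. The replicate numbers did not pair the libraries (correlations of deviations 0.12, 0.01 and −0.10); not every library correlated best with its own number. With a replicate block 1 of the group was called higher and 1 lower, and 2011 and 2549 of all genes. TNFAIP3 rested on 80 to 119 reads per library.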

Other observations

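Low transcripts of the pathway were set aside by the level filter: 27 of the 91 other pathway genes had a mean below 1 FPKM, and 5 (TNIP3, TLR2, TLR4, IL6 and VCAM1) were listed at 0 in every library. Among the low ones, chosen after its values were seen, the neutrophil-attracting chemokine CXCL1 measured 0.761, 0.815 and 0.611 FPKM in siSGK1, against 0.147, 0.268 and 0.315 FPKM in siControl. These values rested on 29, 35 and 29 reads in siSGK1 and 5, 9 and 11 reads in siControl. Without the level filter the log2 change of CXCL1 was 0.73 (SE 0.13, limma adjusted p = 0.019). CCL20, a chemokine at the filter's edge and also chosen after its values were seen, measured 1.65, 0.922 and 1.52 FPKM in siSGK1 and 0.823, 0.545 and 0.552 FPKM in siControl. Its reads numbered 65, 41 and 75 in siSGK1 and 29, 19 and 20 in siControl. CCL20 was called higher with the filter (log2 change 0.70, adjusted p = 0.012) and not without it (adjusted p = 0.076).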
